A study of Homo sapiens with 6 samples.

Results

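The 39 genes described here carry out homologous recombination and the Fanconi anemia pathway of DNA repair. They were chosen by name, as the rows of the count tables whose gene symbol matches a listed recombination, Fanconi or damage checkpoint gene. The list was drawn up with earlier results of these data known. All 39 were found among 56638 listed symbols, and all 39 had enough reads to be tested, with 15242 genes tested in all. RNA came from DLD-1, an established human colorectal cancer cell line that lacks a working mismatch repair system. One group of 3 libraries was made after transfection of a control siRNA. The other group of 3 received an siRNA that targets the long non-coding RNA lncSLCC1, listed in the tables as RP11-400N13.2. Both groups are DLD-1 cells and differ in the labels by the siRNA alone. Separate cultures are not stated for the replicates. The p-values therefore set the group difference against the variation among these libraries, and that variation may be technical.

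Homologous recombination repairs a broken chromosome by copying the sister chromatid. The broken ends are trimmed to single strands. BRCA1, PALB2, BRCA2 and the family of RAD51C and XRCC3 then prepare those strands to pair with the intact copy, and RAD54 proteins help them invade it. The Fanconi pathway removes crosslinks between the DNA strands: its core complex ubiquitinates the FANCD2 and FANCI pair, which then brings in nucleases that unhook the crosslink.

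Gene reads per library ran from 14873343 to 15568075 in controls and from 12572277 to 15262872 after lncSLCC1 siRNA. The targeted RNA stood at 27.1% of its control level, and the groups did not overlap. All 9 colon epithelial markers examined were above 1 CPM (read counts scaled to TMM library sizes) on average, with summed levels of 5785 to 7208 CPM in controls and 5890 to 6218 CPM after lncSLCC1 siRNA. The 6 fibroblast markers summed to 2.21 to 2.73 CPM and 3.05 to 3.27 CPM, with DCN and LUM at 0 reads. The 6 immune and blood markers summed to 0.142 to 0.520 CPM and 0.0778 to 0.319 CPM, with HBB at 0 reads.

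The promoters of the 9 members that changed are shown: FANCA, FANCC, FANCE, FANCG, RAD51C, XRCC3 and RAD54L were lower after lncSLCC1 siRNA, and FANCF and RAD50 were higher. Each runs 5′ to 3′ along the gene's own strand, from 250 bases before to 50 bases after the annotated start, as RefSeq gives it for GRCh38.p14. Capitals mark the words searched for on both strands. These were TTTCGCGC, TTTGGCGC, TTTCCCGC and TTTGCCGC for E2F factors, which drive S phase genes, TTTGAA and TTCGAA for the cell cycle element called CHR, CCAAT for NF-Y, CCGGAAGT for ETS factors, GCATGCGC for NRF1 and CACGTG for E-box factors. On the minus strand lie FANCA at chr16:89816598-89816897, FANCC at chr9:95317660-95317959, FANCG at chr9:35079893-35080192, XRCC3 at chr14:103715402-103715701 and FANCF at chr11:22625774-22626073. On the plus strand lie FANCE at chr6:35452088-35452387, RAD51C at chr17:58692323-58692622, RAD54L at chr1:46247438-46247737 and RAD50 at chr5:132556727-132557026.
FANCA: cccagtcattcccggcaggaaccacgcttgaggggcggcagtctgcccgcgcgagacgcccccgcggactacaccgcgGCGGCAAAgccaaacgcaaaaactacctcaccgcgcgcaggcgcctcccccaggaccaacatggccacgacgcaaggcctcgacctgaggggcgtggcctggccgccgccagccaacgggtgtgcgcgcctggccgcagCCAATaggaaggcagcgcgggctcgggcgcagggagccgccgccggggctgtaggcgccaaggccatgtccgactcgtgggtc
FANCC: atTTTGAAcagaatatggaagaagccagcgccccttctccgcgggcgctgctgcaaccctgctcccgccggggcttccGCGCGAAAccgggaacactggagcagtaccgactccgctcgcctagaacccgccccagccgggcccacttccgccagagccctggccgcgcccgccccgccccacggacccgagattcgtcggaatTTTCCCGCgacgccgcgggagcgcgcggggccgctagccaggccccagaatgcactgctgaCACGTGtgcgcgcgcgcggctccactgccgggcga
FANCE: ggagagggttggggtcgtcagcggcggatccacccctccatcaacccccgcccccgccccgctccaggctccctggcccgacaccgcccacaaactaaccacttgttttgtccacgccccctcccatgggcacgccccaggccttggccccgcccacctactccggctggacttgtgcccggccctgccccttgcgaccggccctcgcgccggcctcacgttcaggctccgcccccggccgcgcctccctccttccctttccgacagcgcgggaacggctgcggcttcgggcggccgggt
FANCG: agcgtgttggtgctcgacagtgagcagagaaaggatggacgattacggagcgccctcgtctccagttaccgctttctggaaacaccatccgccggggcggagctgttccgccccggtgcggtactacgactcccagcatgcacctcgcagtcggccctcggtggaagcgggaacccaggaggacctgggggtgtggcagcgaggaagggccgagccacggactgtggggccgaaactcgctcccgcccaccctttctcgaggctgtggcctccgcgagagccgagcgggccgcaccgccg
RAD51C: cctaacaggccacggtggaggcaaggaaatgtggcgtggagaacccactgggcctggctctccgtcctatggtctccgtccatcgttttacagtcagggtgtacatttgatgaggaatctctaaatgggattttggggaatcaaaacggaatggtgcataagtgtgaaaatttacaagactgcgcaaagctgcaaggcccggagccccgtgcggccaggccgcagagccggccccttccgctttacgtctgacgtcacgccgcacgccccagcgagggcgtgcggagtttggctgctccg
XRCC3: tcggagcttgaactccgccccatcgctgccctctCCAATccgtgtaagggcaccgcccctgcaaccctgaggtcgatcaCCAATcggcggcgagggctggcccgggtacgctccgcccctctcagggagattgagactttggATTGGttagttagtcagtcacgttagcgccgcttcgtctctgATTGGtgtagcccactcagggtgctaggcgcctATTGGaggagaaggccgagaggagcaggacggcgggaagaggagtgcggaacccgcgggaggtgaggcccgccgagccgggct
RAD54L: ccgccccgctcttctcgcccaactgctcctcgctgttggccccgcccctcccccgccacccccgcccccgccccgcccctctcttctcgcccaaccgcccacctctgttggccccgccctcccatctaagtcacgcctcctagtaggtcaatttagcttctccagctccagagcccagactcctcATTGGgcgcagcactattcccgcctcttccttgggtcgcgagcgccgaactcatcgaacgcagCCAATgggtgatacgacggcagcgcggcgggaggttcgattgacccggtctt
FANCF: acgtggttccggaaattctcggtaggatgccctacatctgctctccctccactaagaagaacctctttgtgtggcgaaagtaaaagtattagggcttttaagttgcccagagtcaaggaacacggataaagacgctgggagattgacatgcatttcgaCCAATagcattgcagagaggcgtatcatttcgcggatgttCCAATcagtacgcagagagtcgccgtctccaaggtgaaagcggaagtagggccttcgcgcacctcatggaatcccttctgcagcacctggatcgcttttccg
RAD50: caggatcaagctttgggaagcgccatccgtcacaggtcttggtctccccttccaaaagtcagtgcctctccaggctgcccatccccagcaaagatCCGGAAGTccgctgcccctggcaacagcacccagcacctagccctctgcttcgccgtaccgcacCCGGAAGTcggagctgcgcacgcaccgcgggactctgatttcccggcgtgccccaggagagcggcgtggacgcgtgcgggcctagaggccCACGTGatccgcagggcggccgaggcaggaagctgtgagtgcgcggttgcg

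The FANCA promoter holds 1 E2F word, starting at position -172 from the start site, and 1 CCAAT word. The FANCC promoter holds E2F words at positions -172 and -46, with a CHR word and an E-box word. The promoters of FANCE, FANCG and RAD51C, 3 of the 7 lower genes, hold 0 searched words. XRCC3 has 5 CCAAT words, RAD54L and FANCF have 2 each, and RAD50 has ETS words at -155 and -91 with an E-box word at -1. No words of different kinds overlapped in these 9 promoters. Promoters were found for 35 of the 39 genes, without RAD54B, NBN, WRN and FANCI. An E2F word was in 5 of the 35, or 14.3%, against 3.33% of all 27305 promoters of this length, and the 5 were FANCA, FANCC, FANCD2, TOPBP1 and XRCC2. Of those 5 genes, FANCA and FANCC were lower and the other three were not past the threshold. ETS words were in 17.1% of the 35 and 4.44% of all promoters, and CCAAT in 42.9% and 35.7%. CHR words were in 11.4% and 16.6%, NRF1 words in 5.71% and 3.27%, and E-box words in 8.57% and 7.43%. Among the 7 members that were lower, 2 had an E2F word, 3 had CCAAT and 0 had an ETS word. A match describes the letters and does not show a bound site.

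After lncSLCC1 siRNA, 7 of the 39 genes were lower and 2 were higher, and 30 did not pass the threshold. The threshold was a Benjamini-Hochberg adjusted p under 0.05 over all tested genes in edgeR's quasi-likelihood test. The genes that fell were FANCA, FANCC, FANCE and FANCG of the Fanconi core complex, the related genes RAD51C and XRCC3, and the translocase RAD54L. RAD50, the ATPase of the break-sensing complex, and FANCF, another core complex subunit, rose. The falls were 1.23-fold to 1.53-fold and the rises 1.36-fold and 1.41-fold. Lower genes made up 17.95% of the members against 7.39% of all tested genes, and higher genes 5.13% against 6.46%, so that 23.1% of the members and 13.8% of all tested genes were called in either direction. The median log2 fold change was -0.07 over the members and 0.0072 over all tested genes. Below 0 were 25 of the 39 values, or 64.1%, against 48.96% over all tested genes. Per library, the median over the members of log2(CPM + 0.5) minus the control mean was -0.11, 0.0080 and 0.13 in controls. After lncSLCC1 siRNA it was -0.031, -0.017 and -0.055, inside the range of the controls.

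**Figure D1:**
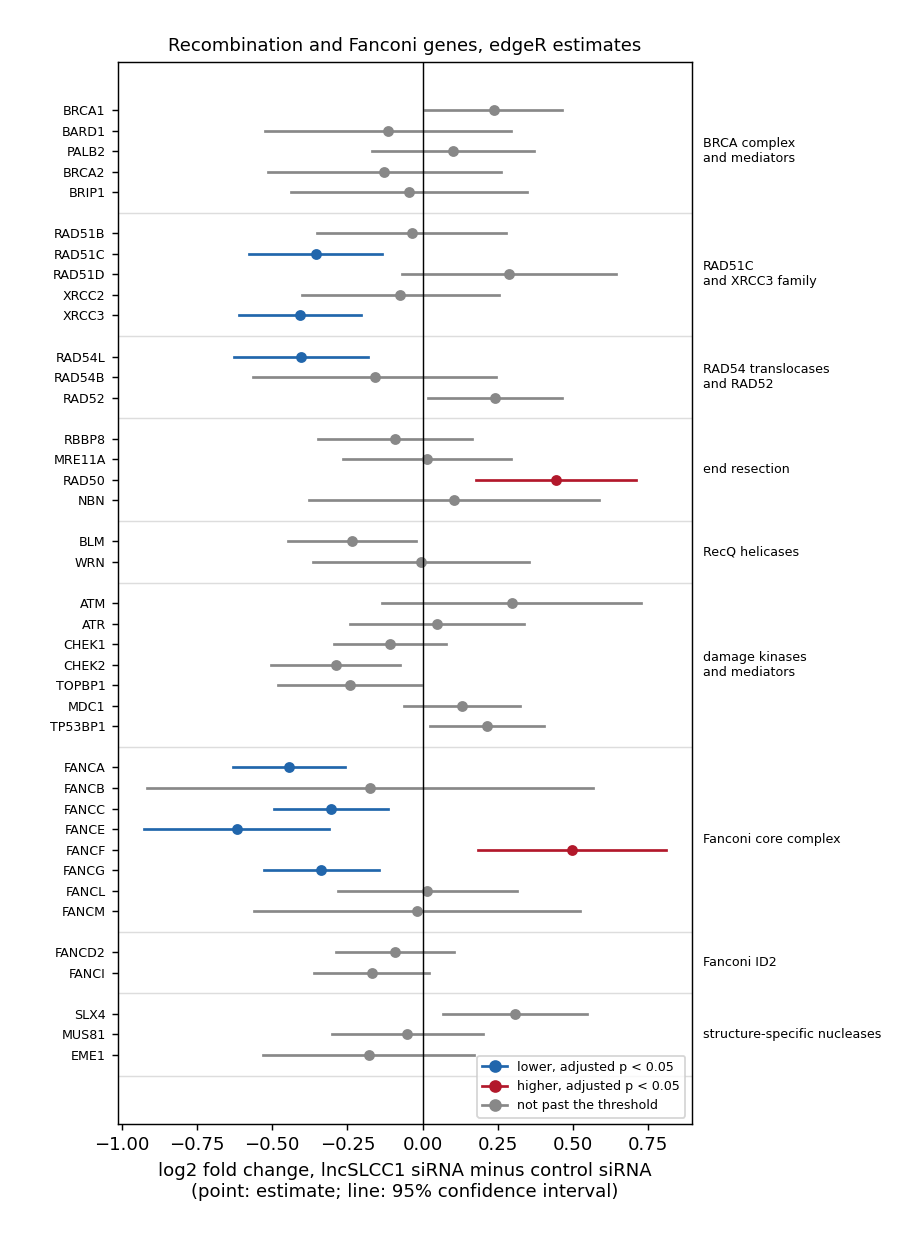
Log2 fold change of each of the 39 genes, lncSLCC1 siRNA minus control siRNA, grouped by role; points are edgeR estimates and lines their 95% confidence intervals. The 7 genes in blue were lower and the 2 in red higher; 4 of the 7 lower genes and 1 of the 2 higher ones belong to the Fanconi core complex.

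Without any one lncSLCC1 siRNA library 0 of the 39 genes were called by edgeR. In those fits 1.565% to 2.044% of all tested genes were called lower. The log2 fold changes of FANCA were then -0.44, -0.42 and -0.48, and those of FANCE -0.59, -0.62 and -0.65. The groups of the 9 called genes did not overlap, so leaving out a library could hardly turn their direction. Without control replicate 2 only FANCA was called, where 2.255% of all tested genes were lower.

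Among the 8 listed genes of the Fanconi core complex 4 were lower and 1 was higher. Over all tested genes 7.39% were lower and 6.46% higher. FANCA and FANCG bind each other inside the complex, and both fell. The levels of FANCA were 78.2, 72.2 and 75.9 CPM in control replicates 1 to 3, and 54.8, 53.7 and 57.9 CPM in lncSLCC1 siRNA replicates 1 to 3. Every lncSLCC1 siRNA library lay below every control, and FANCA was left at 73.5% of its control mean (edgeR log2 fold change -0.44 with SE 0.0833 and adjusted p = 0.00943). ZNF276, which covers 22.4% of the FANCA exon bases on the opposite strand in GENCODE 29, was lower too (edgeR log2 fold change -0.35 with SE 0.0976 and adjusted p = 0.0415). The levels of FANCG were 80.9, 78.0 and 71.9 CPM in controls, and 63.7, 59.2 and 59.8 CPM after lncSLCC1 siRNA. The groups did not overlap, and FANCG was left at 79.2% of its control mean (edgeR log2 fold change -0.34 with SE 0.0860 and adjusted p = 0.0317). C1orf86, which encodes their partner FAAP20, did not pass the threshold (edgeR log2 fold change -0.35 with SE 0.131 and adjusted p = 0.102).

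FANCC, FANCE and FANCF form another part of the core complex, with FANCF as the adaptor that holds it to the rest. FANCE, which bridges the core complex to FANCD2, had the lowest log2 fold change of the 39 genes with all libraries. Without control replicate 1 it was -0.47, SE 0.106, and FANCB was lower at -0.53, SE 0.142. The levels of FANCE were 24.2, 19.0 and 17.6 CPM in controls, and 12.7, 13.19 and 13.7 CPM after lncSLCC1 siRNA. Every lncSLCC1 siRNA library lay below every control, at 65.1% of the control mean (edgeR log2 fold change -0.62 with SE 0.138 and adjusted p = 0.0186). For FANCC the levels were 59.1, 54.8 and 56.5 CPM in controls, and 44.8, 47.6 and 45.7 CPM after lncSLCC1 siRNA. FANCC was left at 81.0% of control, again with no overlap (edgeR log2 fold change -0.30 with SE 0.0851 and adjusted p = 0.0425). With the replicate number as a block the adjusted p of FANCC was 0.0753 by edgeR, with no filter on low counts 0.0658, and with library totals 0.0715.

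FANCF moved the other way. Its levels were 6.25, 7.60 and 7.92 CPM in controls, and 9.42, 10.5 and 10.9 CPM after lncSLCC1 siRNA. All 3 lncSLCC1 siRNA libraries lay above all 3 controls, at 142% of the control mean (edgeR log2 fold change 0.50 with SE 0.139 and adjusted p = 0.0426). FANCF had the fewest reads of the 9 called genes, 88 to 122 per control library and 140 to 165 per lncSLCC1 siRNA library.

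FANCL, FANCB and FANCM did not pass the threshold. FANCL, the ubiquitin ligase, was at 33.0 ± 5.94 in the controls against 33.4 ± 0.854 in the lncSLCC1 siRNA libraries, in CPM (SD, n = 3 each), and the 95% confidence interval of its log2 fold change was -0.28 to 0.31. FANCB, which binds FANCL, had levels of 3.06, 10.0 and 8.83 CPM in controls, and 7.03, 6.12 and 6.38 CPM after lncSLCC1 siRNA. Control replicate 1 was the lowest of the 6 libraries for FANCB and control replicate 2 the highest, and the interval was wide, at -0.91 to 0.57. FANCM, the translocase that anchors the complex on DNA, had levels of 12.6, 25.5 and 28.8 CPM in controls, and 23.5, 21.5 and 21.2 CPM after lncSLCC1 siRNA. Here too control replicate 1 lay lowest. Without it FANCB and FANCM were called lower, with edgeR log2 fold changes of -0.53, SE 0.142 and -0.30, SE 0.0928 (adjusted p = 0.00664 and 0.0180).

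FANCD2 and FANCI, the pair that the core complex ubiquitinates, were not called. FANCD2 had levels of 69.9, 69.1 and 77.6 CPM in controls, and 70.5, 68.7 and 63.9 CPM after lncSLCC1 siRNA, and the groups overlapped. The 95% confidence interval of its log2 fold change was -0.29 to 0.10 (edgeR log2 fold change -0.09 with SE 0.0880 and adjusted p = 0.506). FANCI had levels of 131, 138 and 156 CPM in controls, and 126, 129 and 124 CPM after lncSLCC1 siRNA. The groups did not overlap for FANCI, but it missed the threshold (edgeR log2 fold change -0.17 with SE 0.0857 and adjusted p = 0.205). Named pseudogene copies make the counts of FANCD2, CHEK2, MRE11A and RBBP8 uncertain.

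**Figure D2:**
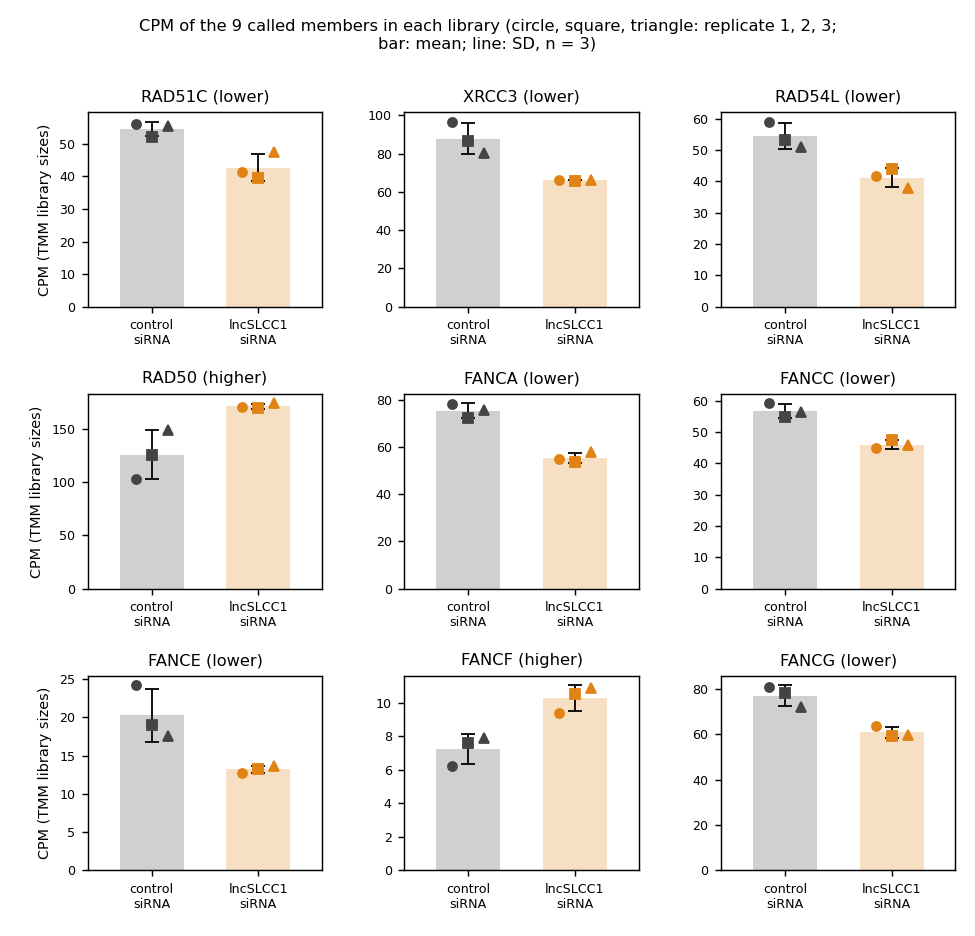
CPM of the 9 genes past the threshold in each library; bars are group means, lines SDs over 3 libraries, and the circle, square and triangle are replicates 1, 2 and 3. In all 9 panels the lncSLCC1 siRNA points lie wholly below or wholly above the control points, as for FANCE at 12.7 to 13.7 CPM against 17.6 to 24.2 CPM. The 9 were chosen by their calls in these same libraries, and the groups did not overlap in 39.01% of all tested genes.

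The family of RAD51C and XRCC3 acts on the trimmed strands before they pair. Of its 5 listed genes 2 were lower and 0 higher, against 7.39% and 6.46% of all tested genes. RAD51C and XRCC3 bind each other as a pair, and both fell. For RAD51C the levels were 56.2, 52.1 and 55.6 CPM in controls, and 41.2, 39.5 and 47.5 CPM after lncSLCC1 siRNA. For XRCC3 they were 96.8, 86.7 and 80.3 CPM in controls, and 66.4, 66.0 and 66.3 CPM after lncSLCC1 siRNA. Neither gene's groups overlapped, and RAD51C was left at 78.2% of its control mean (edgeR log2 fold change -0.36 with SE 0.0986 and adjusted p = 0.0411) and XRCC3 at 75.3% (edgeR log2 fold change -0.41 with SE 0.0908 and adjusted p = 0.0183). With library totals RAD51C missed the threshold (edgeR adjusted p = 0.0715). In GENCODE 29, 45.3% of the exon bases of XRCC3 lie under exons of KLC1 on the opposite strand, and KLC1 had a log2 fold change of -0.05, SE 0.0968.

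The other family members, which join RAD51C in a separate complex, did not pass the threshold. RAD51B was at 6.04 ± 0.555 in the controls against 5.89 ± 0.287 in the lncSLCC1 siRNA libraries, in CPM (SD, n = 3 each). RAD51D was at 6.10 ± 1.16 in the controls against 7.42 ± 0.197 in the lncSLCC1 siRNA libraries, in CPM (SD, n = 3 each), with an interval of the log2 fold change of -0.07 to 0.64. XRCC2 had levels of 35.6, 45.3 and 55.9 CPM in controls, and 41.6, 45.1 and 43.3 CPM after lncSLCC1 siRNA, and all 3 lncSLCC1 siRNA values lay inside the control range. Without control replicate 1, XRCC2 was called lower (-0.22, SE 0.0841, edgeR adjusted p = 0.0477) and RAD51D higher (0.44, SE 0.154, edgeR adjusted p = 0.0332).

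RAD54L, the translocase that helps a broken strand open the intact duplex, fell. Its levels were 59.1, 53.3 and 50.8 CPM in controls, and 41.6, 43.8 and 37.8 CPM after lncSLCC1 siRNA. The groups did not overlap, and RAD54L was left at 75.5% of its control mean (edgeR log2 fold change -0.40 with SE 0.0999 and adjusted p = 0.0280). Exons of LRRC41 on the opposite strand cover 18.0% of its exon bases, and LRRC41 had a log2 fold change of 0.16, SE 0.0917. The related gene RAD54B was at 6.09 ± 1.31 in the controls against 5.48 ± 0.438 in the lncSLCC1 siRNA libraries, in CPM (SD, n = 3 each), and 63.3% of its exon bases are shared with FSBP. RAD52, which anneals single strands, had levels of 19.7, 19.9 and 19.7 CPM in controls, and 23.0, 24.8 and 22.3 CPM after lncSLCC1 siRNA. All 3 lncSLCC1 siRNA libraries were above the controls for RAD52, but the gene missed the threshold (edgeR log2 fold change 0.24 with SE 0.0999 and adjusted p = 0.129).

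Among the genes of end resection, 1 of 4 was higher and 0 were lower, against 6.46% and 7.39% of all tested genes. RAD50, MRE11A and NBN encode the complex that holds and trims broken ends. RAD50 had levels of 103, 125 and 149 CPM in controls, and 170.1, 169.7 and 174 CPM after lncSLCC1 siRNA. All 3 lncSLCC1 siRNA libraries lay above the highest control, and RAD50 rose to 136% of its control mean (edgeR log2 fold change 0.44 with SE 0.119 and adjusted p = 0.0368). The nuclease gene MRE11A, now named MRE11, was at 22.2 ± 3.33 in the controls against 22.5 ± 0.344 in the lncSLCC1 siRNA libraries, in CPM (SD, n = 3 each), with an interval of the log2 fold change of -0.26 to 0.30. NBN, the regulatory subunit, had levels of 37.5, 72.4 and 77.2 CPM in controls, and 65.6, 68.1 and 67.7 CPM after lncSLCC1 siRNA. Control replicate 3 stood 2.06-fold above control replicate 1 for NBN, the lncSLCC1 siRNA libraries lay between them, and the interval was -0.38 to 0.59. RBBP8, which encodes the resection factor CtIP, was at 56.6 ± 8.14 in the controls against 53.1 ± 2.65 in the lncSLCC1 siRNA libraries, in CPM (SD, n = 3 each). The log2 fold change of RAD50 was 0.32, SE 0.0657 without control replicate 1 and 0.29, SE 0.0480 with offsets for the GC content and length of transcripts, and was called in both. In GENCODE 29, 90.6% of the RAD50 exon bases overlap other genes, 2.93% on the opposite strand, and the annotation used for counting is not given in the sources used here.

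The BRCA complex and its mediators gave 0 calls among 5 genes by edgeR, DESeq2 and limma-voom, with 0 lower and 1 higher at an unadjusted p under 0.05 in edgeR. In edgeR 16.3% of all tested genes were lower and 15.3% higher at that unadjusted p. At the adjusted threshold these shares were 7.39% and 6.46%. The same shares stand beside the calls and unadjusted counts of the lists below. BRCA1, the scaffold that promotes resection, had levels of 56.1, 63.3 and 72.0 CPM in controls, and 77.7, 73.7 and 74.2 CPM after lncSLCC1 siRNA. The lncSLCC1 siRNA libraries lay just above the highest control, and the gene missed the threshold (edgeR log2 fold change 0.24 with SE 0.103 and adjusted p = 0.145). BRCA2, a tumor suppressor that acts after resection, had levels of 25.4, 37.7 and 44.3 CPM in controls, and 31.4, 33.5 and 33.6 CPM after lncSLCC1 siRNA. The lncSLCC1 siRNA values sat inside the control range, and the 95% confidence interval of the log2 fold change was -0.51 to 0.26 (edgeR log2 fold change -0.13 with SE 0.173 and adjusted p = 0.652). BARD1, the partner of BRCA1, was at 24.5 ± 6.80 in the controls against 22.7 ± 1.44 in the lncSLCC1 siRNA libraries, in CPM (SD, n = 3 each). PALB2, which links BRCA1 to BRCA2, was at 21.4 ± 3.03 in the controls against 22.9 ± 0.613 in the lncSLCC1 siRNA libraries, in CPM (SD, n = 3 each). The helicase gene BRIP1 was at 25.1 ± 6.20 in the controls against 24.4 ± 3.01 in the lncSLCC1 siRNA libraries, in CPM (SD, n = 3 each).

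The damage kinases and their mediators also gave 0 calls among 7 genes by edgeR, DESeq2 and limma-voom, with 2 lower and 1 higher at an unadjusted p under 0.05 in edgeR. ATM, the kinase that answers double-strand breaks, had levels of 28.6, 46.6 and 55.2 CPM in controls, and 51.5, 54.9 and 54.1 CPM after lncSLCC1 siRNA. Control replicate 1 was the lowest library for ATM (edgeR log2 fold change 0.30 with SE 0.193 and adjusted p = 0.321), and without it the log2 fold change was 0.07, SE 0.0778. ATR, the kinase that answers stalled forks, had levels of 60.4, 78.8 and 86.7 CPM in controls, and 71.4, 82.4 and 79.9 CPM after lncSLCC1 siRNA. The groups overlapped for ATR, and the 95% confidence interval of its log2 fold change was -0.24 to 0.34 (edgeR log2 fold change 0.05 with SE 0.130 and adjusted p = 0.832). The effector kinase gene CHEK1 was at 70.1 ± 3.89 in the controls against 65.1 ± 0.779 in the lncSLCC1 siRNA libraries, in CPM (SD, n = 3 each). CHEK2, the effector of ATM, was at 31.5 ± 1.23 in the controls against 25.8 ± 1.10 in the lncSLCC1 siRNA libraries, in CPM (SD, n = 3 each). The groups of CHEK2 did not overlap, those of CHEK1 were next to each other, and CHEK2 missed the threshold (edgeR log2 fold change -0.29 with SE 0.0959 and adjusted p = 0.0718).

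TOPBP1, which activates ATR, was at 129 ± 18.6 in the controls against 109 ± 2.98 in the lncSLCC1 siRNA libraries, in CPM (SD, n = 3 each). MDC1, which binds damaged chromatin, was at 112 ± 8.69 in the controls against 122 ± 6.35 in the lncSLCC1 siRNA libraries, in CPM (SD, n = 3 each). TP53BP1, which restrains resection, had levels of 94.6, 104 and 109 CPM in controls, and 113, 124 and 119.6 CPM after lncSLCC1 siRNA. The groups did not overlap for TP53BP1, but it missed the threshold (edgeR log2 fold change 0.21 with SE 0.0849 and adjusted p = 0.116). Exons of TUBGCP4 on the opposite strand cover 28.9% of its exon bases.

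The RecQ helicases BLM and WRN, which unwind recombination intermediates, gave 0 calls by edgeR, DESeq2 and limma-voom, with 1 lower at an unadjusted p under 0.05 in edgeR. BLM had levels of 39.6, 44.7 and 43.8 CPM in controls, and 35.2, 38.3 and 35.5 CPM after lncSLCC1 siRNA, without overlap (edgeR log2 fold change -0.23 with SE 0.0952 and adjusted p = 0.126). WRN was at 23.7 ± 5.42 in the controls against 23.7 ± 2.31 in the lncSLCC1 siRNA libraries, in CPM (SD, n = 3 each), with an interval of the log2 fold change of -0.36 to 0.35. The 3 nuclease genes gave 0 calls by the same tools, with 1 higher at an unadjusted p under 0.05. SLX4, the scaffold that gathers nucleases at crosslinks, had levels of 26.3, 23.2 and 28.3 CPM in controls, and 30.4, 32.6 and 33.2 CPM after lncSLCC1 siRNA. SLX4 was above every control in all 3 lncSLCC1 siRNA libraries but missed the threshold (edgeR log2 fold change 0.31 with SE 0.108 and adjusted p = 0.0840). MUS81, which cuts joint molecules with EME1, was at 43.6 ± 5.92 in the controls against 42.1 ± 1.96 in the lncSLCC1 siRNA libraries, in CPM (SD, n = 3 each). EME1 was at 14.6 ± 3.25 in the controls against 12.8 ± 0.327 in the lncSLCC1 siRNA libraries, in CPM (SD, n = 3 each).

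Counted by the spread of the libraries alone, 11 members had all lncSLCC1 siRNA libraries below all controls and 6 had them all above. Over all tested genes 19.6% were lower and 19.4% higher by this measure. The 11 were the 7 called genes with BLM, CHEK1, CHEK2 and FANCI, and the 6 were FANCF, RAD50, BRCA1, RAD52, SLX4 and TP53BP1. The lowest control and highest lncSLCC1 siRNA values of CHEK1 were 65.66 and 65.65 CPM. With library totals in place of TMM sizes the groups of BLM, CHEK1 and FANCI overlapped, and those of RAD51D separated, with the lncSLCC1 siRNA libraries higher. An exact two-sided permutation test of 3 against 3 libraries cannot give a p below 0.1.

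**Figure D3:**
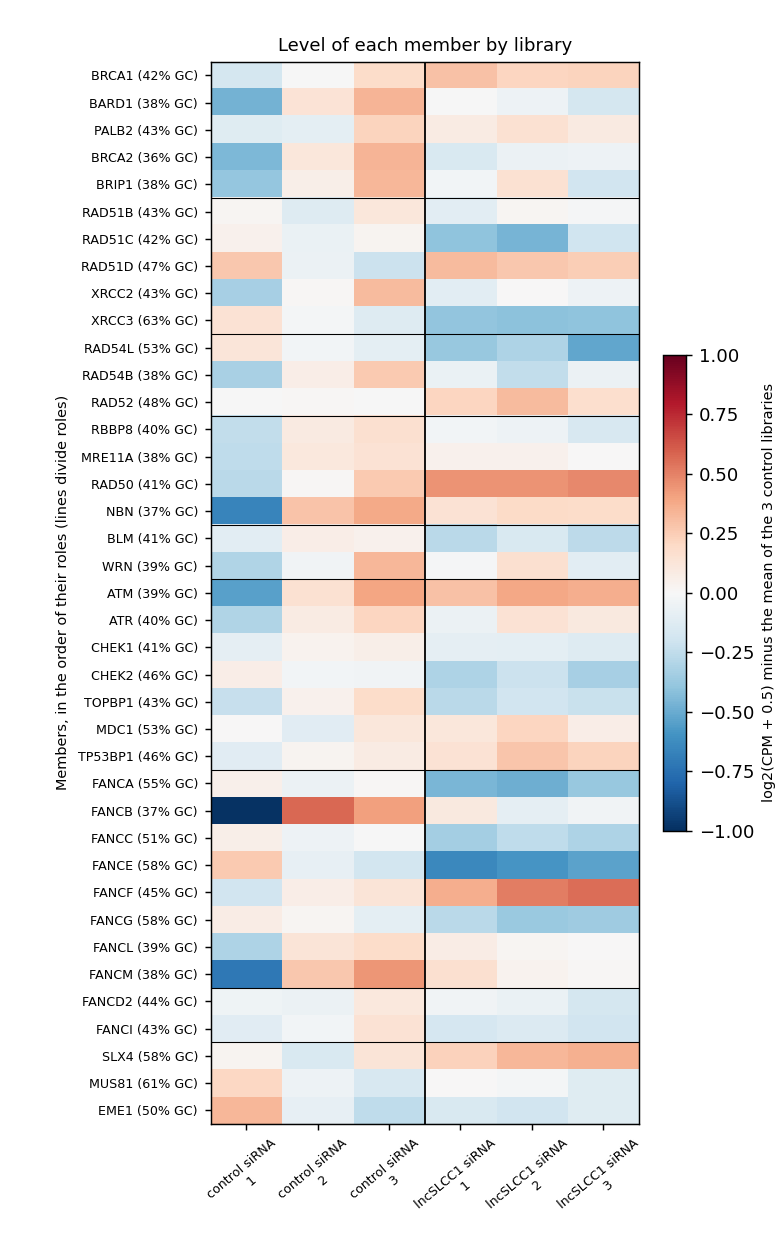
Level of each of the 39 genes in each library, as log2(CPM + 0.5) minus the mean of the 3 controls, with the GC content of the transcript beside the name. Blue is below and red above the control mean; control replicate 1 is blue for genes of low GC content such as NBN, ATM, FANCB and FANCM.

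The controls differed more among themselves than the lncSLCC1 siRNA libraries did. The median coefficient of variation over the members was 14.15% in controls and 4.27% after lncSLCC1 siRNA, and it was larger in controls for 36 of the 39 genes. Over all tested genes the medians were 13.6% and 5.92%. Control replicate 1 was the lowest control for 24 of the 39 genes, or 61.5%, against 36.95% of all tested genes. Base composition moved with this. Of the 11 members whose longest transcript in GENCODE 29 has under 40% GC, control replicate 1 was the lowest control in 11. Of the 10 members with 50% GC or more, it was the lowest in 0 and the highest in 8.

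Of the 10 members with 50% GC or more, 6 were lower and 0 higher, and of the 29 below 50% GC, 1 was lower and 2 were higher. The lower gene below 50% GC was RAD51C. Among all tested genes 10.2% were lower in the upper class and 5.87% in the lower class, and the median log2 fold changes were -0.06 and 0.06. The medians of the members in these classes were -0.32 and -0.04. The part of base composition in the differences was not tested. In the fit whose offsets remove each library's trend over GC content and length, the 7 lower genes were called at log2 fold changes from -0.59 for FANCE to -0.31 for FANCG.

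**Figure D4:**
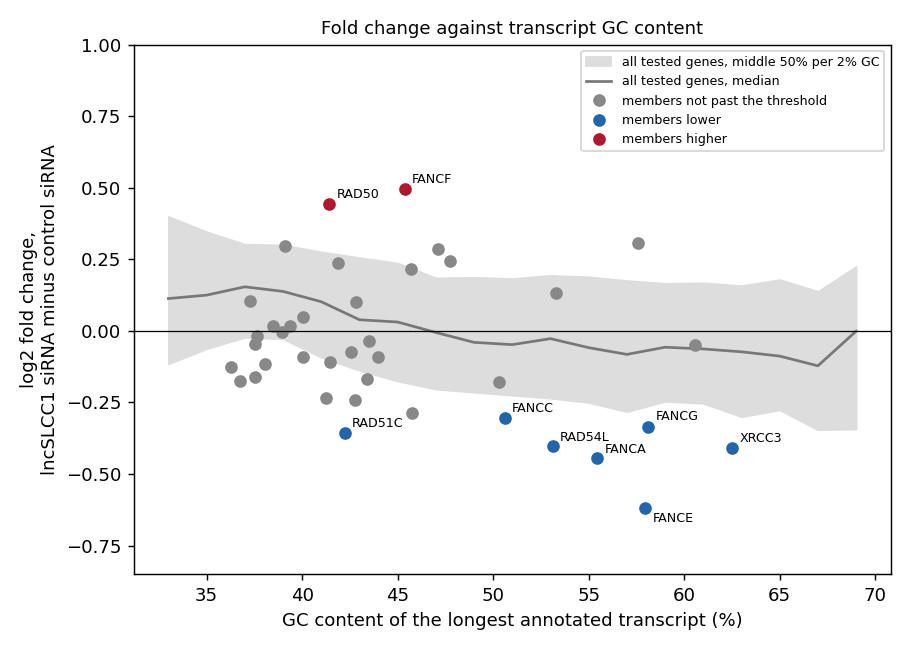
Log2 fold change (lncSLCC1 siRNA minus control siRNA) against the GC content of the longest annotated transcript; points are the 39 genes, the line and band the median and middle 50% of all tested genes per 2% of GC. The 7 lower genes lie below the band, and 6 of them have at least 50% GC.

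With those offsets 16 members were lower and 4 higher, where 19.28% and 11.89% of all tested genes were called. The 9 further lower genes were BARD1, BLM, BRCA2, CHEK1, CHEK2, FANCD2, FANCI, RBBP8 and TOPBP1. Without control replicate 1, 17 were lower and 4 higher, where 15.54% and 13.5% of all tested genes were called. Of the further lower genes, 7 were shared by both fits: BARD1, BLM, BRCA2, CHEK2, FANCI, RBBP8 and TOPBP1. TOPBP1 had log2 fold changes of -0.36, SE 0.0469 with the offsets and -0.35, SE 0.0613 without control replicate 1. BRCA2 had -0.37, SE 0.0636 and -0.32, SE 0.0842. SLX4 was higher in both, at 0.24, SE 0.0810 and 0.31, SE 0.0934. BRCA1, ATM and ATR were called in neither. Without control replicate 3, BRCA1 was called higher (edgeR log2 fold change 0.33, adjusted p = 0.0297).

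Compared per kilobase of transcript, FANCI, FANCG and XRCC3 were the highest members in controls, at 29.9 ± 2.72, 29.2 ± 1.74 and 29.1 ± 2.75 CPM per kilobase (SD, n = 3 each), and did not differ beyond their spread. RAD51C and TOPBP1 followed at 21.1 ± 0.856 and 20.9 ± 3.02 CPM per kilobase. RAD51D was lowest at 0.611 ± 0.117, where its longest annotated transcript sets a length of 9988 bases. RAD54B, RAD51B, FANCB and FANCF came next, at 1.99 ± 0.425, 2.33 ± 0.214, 2.43 ± 1.24 and 2.46 ± 0.300 CPM per kilobase. The levels of all 39 genes together took 1775 to 2108 CPM in controls and 1871 to 1923 CPM after lncSLCC1 siRNA.

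A wider list of 67 recombination, Fanconi, checkpoint and end joining genes was read beside the members, and 64 were tested. There 8 were lower, or 12.5%, against 7.39% of all tested genes. Higher were 2, or 3.125%, against 6.46%, and the median log2 fold change was -0.09. In either direction 15.62% of the 64 and 13.84% of all tested genes were called. The same shares of all tested genes stand beside the counts of each smaller list below. Among other recombination genes, 3 of 25 fell and 1 rose. Those that fell were the resection nuclease gene EXO1 (-0.47, SE 0.110), the helicase gene RECQL4 (-0.43, SE 0.0886) and PSMC3IP, a cofactor of strand exchange (-0.34, SE 0.0990), in edgeR log2 fold changes. PSMC3IP was not called with the replicate block (adjusted p = 0.0815), DESeq2 (0.0639), library totals (0.0788) or no filter on low counts (0.0958), nor EXO1 with library totals (0.0557). FBXO18, which encodes a helicase that restrains recombination, rose (0.34, SE 0.0961), but was not called with the replicate block (edgeR adjusted p = 0.0564). Among other Fanconi genes, 1 of 15 fell, namely STRA13, which encodes a histone-fold partner of FANCM (-0.52, SE 0.127), and 0 rose. UBE2T, the E2 enzyme that works with FANCL, did not pass the threshold (edgeR log2 fold change -0.35 with SE 0.134 and adjusted p = 0.110).

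Around BRCA1 and TP53BP1, 2 of 9 genes fell and 1 rose. RNF168, the ubiquitin ligase that recruits TP53BP1, had levels of 43.4, 49.0 and 46.6 CPM in controls, and 32.0, 29.7 and 33.6 CPM after lncSLCC1 siRNA, with no overlap (edgeR log2 fold change -0.55 with SE 0.0972 and adjusted p = 0.00766). H2AFX, the histone gene whose product ATM phosphorylates, fell too (-0.49, SE 0.117). FAM175A, which encodes the scaffold Abraxas of a BRCA1 complex, had levels of 1.92, 5.72 and 4.74 CPM in controls, and 8.36, 10.2 and 9.41 CPM after lncSLCC1 siRNA. Every lncSLCC1 siRNA library was above every control, and control replicate 1 was lowest here too (edgeR log2 fold change 1.16 with SE 0.287 and adjusted p = 0.0279). In the checkpoint clamp and fork signalling list, HUS1 (-0.62, SE 0.101) and RAD9A (-0.47, SE 0.103), both clamp subunits, fell among 9 genes, and 0 rose. Of these 10 called genes, HUS1 alone was called in all 15 alternative fits. End joining genes, the other route for broken ends, gave 0 calls among 6 by edgeR, with 0 lower and 1 higher at an unadjusted p under 0.05.

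Several of these genes are expressed mostly in S and G2 phase. In bulk RNA, fewer cells in those phases and less RNA per cell cannot be told apart. Of 17 proliferation genes, 4 were lower and 0 higher, or 23.5% lower against 7.39% of all tested genes, with a median log2 fold change of -0.21. The groups did not overlap in 11 of the 17, or 64.7%, all of them lower. Over all tested genes 19.6% were lower and 19.4% higher by this measure. Below 0 were 14 of the 17 log2 fold changes, or 82.35%, against 48.96% over all tested genes. The 4 were PCNA (-0.29, SE 0.0724), CCNE1 (-0.40, SE 0.0932), CCNB1 (-0.37, SE 0.0765) and E2F1 (-0.41, SE 0.106). The values above 0 were those of MKI67 (0.02, SE 0.0984), TOP2A (0.04, SE 0.134) and TYMS (0.04, SE 0.09998), which did not pass the threshold. The part of these differences in those of the recombination genes was not tested.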

How the data were processed

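Total RNA of DLD-1 cells was sequenced in 3 control siRNA and 3 lncSLCC1 siRNA libraries. The authors deposited raw counts, in 1 table per library with a row for each gene symbol. Per the submitters' processing notes, TopHat2 2.0.11, HTSeq and the builds hg19 and GRCh37 were used. The strand setting was not stated, so it is unknown whether reads from overlapping genes on opposite strands were told apart. Reads set aside as ambiguous are not in the counts, so the levels of members that overlap other genes (XRCC3, RAD54L, RAD50 and FANCA among them) may be too low. The summary rows written by HTSeq were kept out of all library sizes and fits, and held 5.42% to 7.58% of reads with no feature, 8.83% to 10.1% ambiguous and 12.8% to 13.8% not unique.

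The test was edgeR 4.0.16's quasi-likelihood test (R 4.3.3) over all genes passing its default filter, with TMM library sizes and no covariate. Each SE was derived from the F statistic, and 95% intervals from the SE. The biological coefficient of variation was 10.9%. Length and GC content came from the longest GENCODE 29 transcript by symbol, basic set first, for 89.4% of tested genes. Promoters came from RefSeq.

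The test was tried on simulated data over 15005 genes, with 1 spread common to all genes and both groups. Of 50 genes changed at each size, 14% were recovered at 1.3-fold, 66% at 1.5-fold and 96% at 2-fold. No replicates agreed within sampling noise: the chi-square per gene was 1.86 to 1.99 between lncSLCC1 siRNA libraries and 5.91 to 30.6 between controls. Alternatives were other library sizes and filters, DESeq2 1.42.0, limma-voom 3.58.1, a replicate block, GC and length offsets (mgcv 1.9.3), a threshold of 0.01 and each library left out.

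The members and lists were chosen with earlier results of these data known. All 39 members were named. Values in every library were given for called members and for BRCA1, BRCA2, ATM, ATR, FANCD2 and RAD50, and for some others. Named from the wider list were called genes, at most 5 per direction and list. One further pathway gene was left off that list and is not reported here. UBE2T, C1orf86, MKI67, TOP2A, TYMS and the overlapping genes ZNF276, KLC1 and LRRC41 were named after their values were seen.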

Additional observations from a re-analysis of the deposited data

How the results depend on the processing

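The counts of called members depended on the libraries. Leaving out each library in turn gave 0 to 17 lower and 0 to 4 higher members, 1 to 23 lower and 0 to 5 higher genes of the wider list, and 244 to 2431 lower and 213 to 2112 higher genes in all. With GC content and length offsets the members were 16 lower and 4 higher, the wider list 24 and 4, and all genes 2938 and 1813. With the replicate block and those offsets together they were 15 lower and 3 higher members, 21 and 4 in the wider list, and 2746 and 1649 in all. At an adjusted p under 0.01 there were 1 lower and 0 higher members, 2 and 0 in the wider list, and 327 and 251 in all. With no low-count filter 1600 genes were higher. The replicate block alone gave 6 lower members in place of 7, losing FANCC, and 2 higher. Deviations of same-numbered libraries had correlations of 0.094, 0.001 and -0.016, and those of differently numbered ones ran from -0.084 to 0.102. These values show no pairing by number, but with 3 libraries per group they cannot exclude it.

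The median log2 fold change of the members was -0.158 without control replicate 1 and 0.051 without control replicate 3. It was -0.1799 with the offsets and -0.1795 with the block added. No called member changed sign in the 15 fits. The groups of these members did not overlap, so leaving out a library could hardly turn a sign. Signs turned only for members not called with all libraries. With library totals the log2 fold changes became 0.0191 for BRIP1, 0.0439 for FANCM, 0.0212 for MUS81, 0.0324 for RAD51B and 0.0605 for WRN. With limma-voom they were 0.0633 for FANCM and 0.0157 for WRN, with the block 0.0488 and 0.0149, and WRN was 0.00197 at a mean of at least 1 CPM. With the offsets they were -0.1361 for ATR, -0.0398 for FANCL, -0.175 for MRE11A and -0.039 for NBN, and with the block added -0.1361, -0.0376, -0.1795 and -0.0253. Over the left-out libraries ATR ran from -0.0892 to 0.158, BARD1 from -0.318 to 0.0613, BRCA2 from -0.323 to 0.0511, BRIP1 from -0.215 to 0.132, EME1 from -0.306 to 0.00884, FANCB from -0.534 to 0.115, FANCL from -0.125 to 0.105, FANCM from -0.298 to 0.205, MRE11A from -0.1025 to 0.0872, MUS81 from -0.133 to 0.0616, NBN from -0.158 to 0.283, RAD51B from -0.109 to 0.0247, WRN from -0.143 to 0.181 and XRCC2 from -0.2245 to 0.0953. Apart from the settings that drop a library, the causes of these shifts were not tested. Differences of 1.3-fold, the size of most falls here, were seldom recovered in the simulation. It gave both groups the same spread, whereas the controls here varied more, so recovery in these data may differ.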
